A study of Bos taurus and Bos grunniens and Bubalus bubalis with 15 samples.

Results

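SOD1, SOD2, CAT, GPX1, GPX3 and SELENOP are enzymes and a carrier protein of the defence against superoxide and peroxide. They were taken by the gene symbol that the platform annotation gives, which found 7 probe sets (groups of short probes against 1 transcript) for these 6 genes, among 13292 probe sets with 1 symbol for 9155 genes. GPX1 had 2 probe sets and the other genes 1 each, and all 7 were bright enough to be tested.

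Superoxide, which leaks from the respiratory chain, is turned into hydrogen peroxide by superoxide dismutases, SOD1 in the cytosol with copper and zinc and SOD2 in mitochondria with manganese. Catalase (CAT) and the glutathione peroxidases then reduce peroxide, GPX1 inside the cell and GPX3 mainly in blood plasma. Both peroxidases carry selenocysteine, an amino acid that holds selenium, at the active site, and SELENOP is the secreted selenium carrier, made largely by liver and also transcribed in other tissues, muscle among them.

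The RNA came from the longissimus dorsi, the long back muscle, of 15 animals slaughtered at 36 months, read on 1 bovine Affymetrix array each, with 3 animals in each of 5 groups. Of the groups, 1 was Guangxi buffalo and 1 Qinghai yak, whose labels give no sex. Females, castrated males and intact males were Qinchuan cattle, a Chinese beef breed, of like background, born close together and reared alike. The submitters set out to compare the sexes of cattle, and cattle with yak and buffalo. Of 10 defining muscle markers 9 were on the array, and their summed intensity lay between 78506 and 100980 on every array, with none of them at 0.

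Each value is the brightness of a probe set after hybridisation, and the 3 arrays of a group limit its precision. The probes hold cattle sequence, and how well yak and buffalo transcripts bind them was not tested. The 6 genes were selected on intensities of these same arrays, seen in earlier results, and which comparison led to the choice is not recorded, so every comparison is treated as used. Their differences between groups are therefore given as a description, as log2 differences with a standard error (SE), on log2(intensity + 16). For other genes the adjusted p of limma is given, corrected by the Benjamini-Hochberg method over 14409 probe sets, with 0.05 as the threshold. Levels of different probe sets are not set against each other. In bulk tissue, fewer cells of a type and less RNA per cell cannot be told apart.

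Intact male 1 stood apart from the other cattle. Its 15 macrophage markers summed to 34220, against 6606 to 9437 in the other intact males and 1533 to 4435 in castrated males and females. Its fibroblast markers summed to 49603, against 36539 and 41532 in the other intact males. Its muscle marker sum of 78506 was the lowest of all arrays, and its fast fibre marker sum of 85056 the lowest of the cattle arrays. The actin probe sets at the 3' and 5' ends, whose ratio grows as RNA breaks down, stood at a ratio of 1.48 there, the highest of the cattle arrays, against 1.17 and 1.39 in intact males 2 and 3. The buffalo arrays had lower mean intensities, 304 to 313, than the cattle arrays at 342 to 364, while the array medians of log2 values lay between 6.71 and 6.81 throughout. The actin ratio was 1.42 to 1.73 in buffalo and 1.49 to 1.93 in yak, against 1.17 to 1.48 in cattle, and these control probe sets also hold cattle sequence. The same ratio for GAPDH was 1.22, 1.42 and 1.504 in buffalo, with buffalo 2 and 3 above all cattle, and 1.20 to 1.26 in yak, within the 1.13 to 1.34 of cattle.

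SOD1 (Entrez gene 281495) was lowest in buffalo, intermediate in yak and highest in cattle. Its intensities were 1307, 1227 and 964 in buffalo and 2228, 2213 and 1981 in yak, against 3992, 4241 and 2938 in females, 4414, 3287 and 4005 in castrated males and 4340, 3368 and 3538 in intact males. All buffalo arrays lay below all yak arrays, and all yak arrays below all cattle arrays. The cattle groups overlapped each other, with means of 3724 ± 692 in females, 3902 ± 571 in castrated males and 3749 ± 519 in intact males (SD, n = 3 each). Buffalo minus cattle was -1.69 (SE 0.14) and yak minus cattle -0.81 (SE 0.14) on the log2 scale, with the 3 cattle groups weighted equally. These 2 differences share the 9 cattle arrays. Buffalo minus yak was -0.88 (SE 0.17).

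SOD2 (Entrez gene 281496) had the same order of species with smaller steps. Its intensities were 1802, 1391 and 1570 in buffalo and 2084, 2299 and 2744 in yak, against 2762, 3359 and 3360 in females, 2911, 3828 and 3937 in castrated males and 2602, 2752 and 3270 in intact males. The buffalo arrays lay below all others, while yak 3 overlapped the lowest intact male, so yak and intact males were not separated. Buffalo minus cattle was -0.997 (SE 0.13) and yak minus cattle -0.42 (SE 0.13). Among cattle, castrated minus intact male was 0.30 (SE 0.16), with overlapping groups.

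CAT (Entrez gene 531682) was lower in buffalo than in yak and cattle, whose values overlapped. Buffalo had 1850, 1653 and 1389, against 2816, 2671 and 3456 in yak, 3080, 2648 and 2629 in females, 2271, 3122 and 2414 in castrated males and 3074, 2716 and 3245 in intact males. No buffalo array reached any other array, and the other 4 groups all overlapped their neighbours in the order of means. Buffalo minus cattle was -0.77 (SE 0.12) and buffalo minus yak -0.87 (SE 0.15), against a yak minus cattle difference of 0.09 (SE 0.12).

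**Figure D1:**
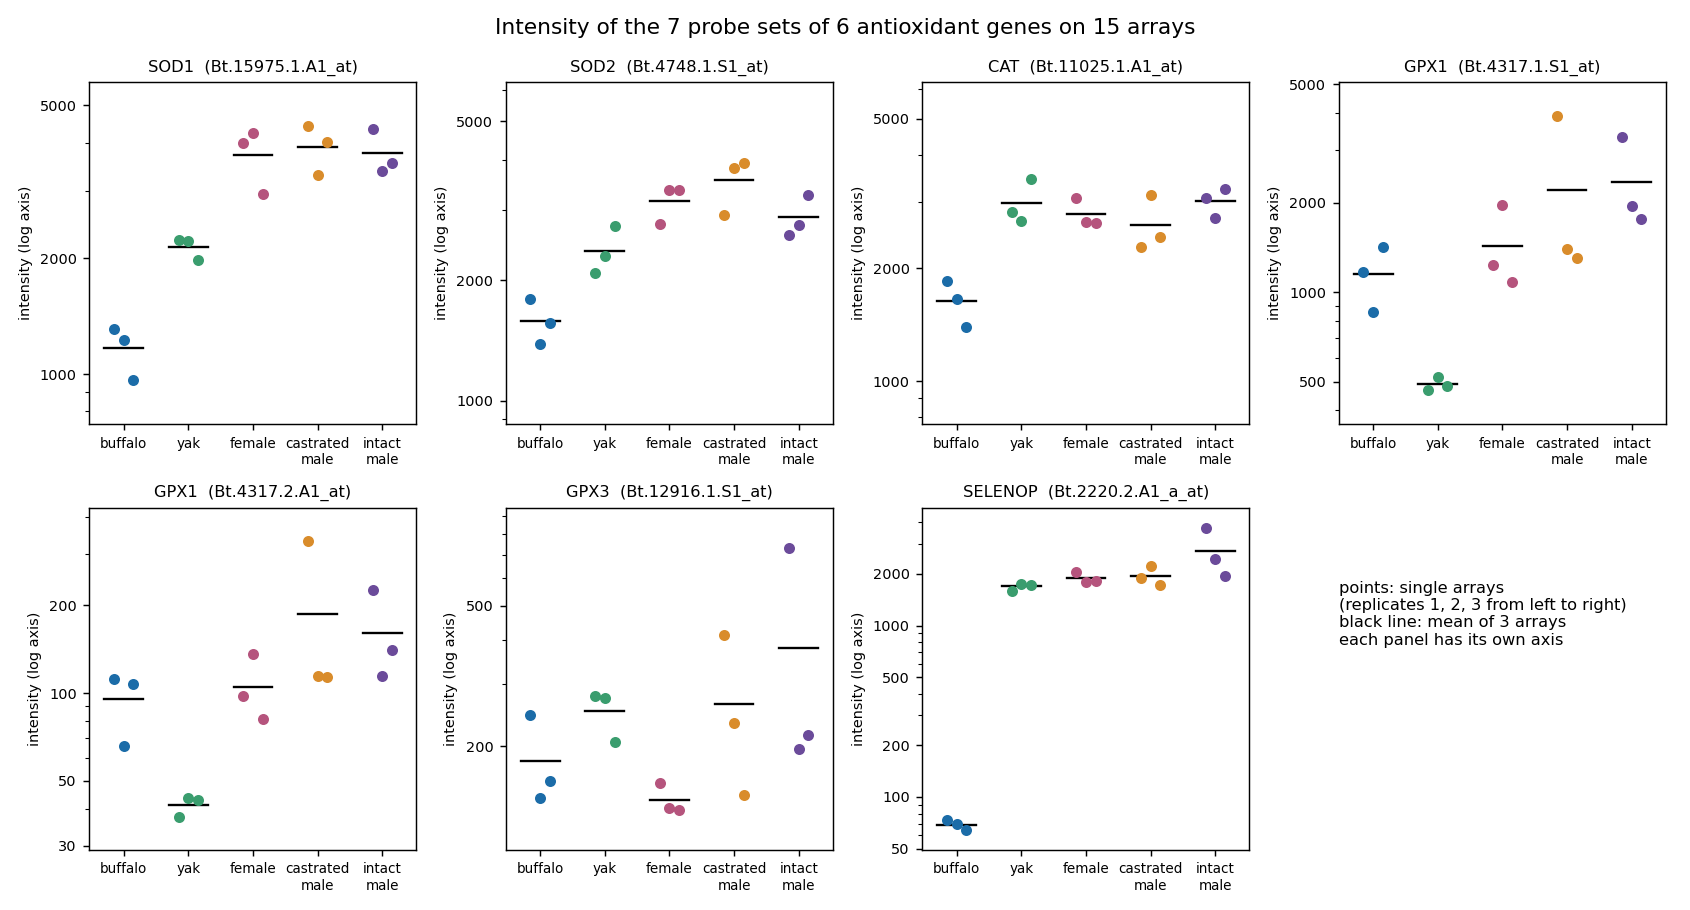
Intensity of each of the 7 probe sets (log axis, a separate range in each panel) on single arrays of buffalo, yak, females, castrated males and intact males; the black line is the mean of 3 arrays. SOD1, SOD2, CAT and SELENOP are lowest in buffalo, with SELENOP at 63.9 to 72.9 there, and both GPX1 probe sets are lowest in yak.

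GPX1 (Entrez gene 281209), the peroxidase inside the cell, was lowest in yak rather than in buffalo. On its brighter probe set yak had 468, 518 and 484, buffalo 1169, 856 and 1421, females 1233, 1959 and 1081, castrated males 3902, 1395 and 1303, and intact males 3314, 1945 and 1754. All 3 yak arrays lay below every other array, and buffalo overlapped females and castrated males. Yak minus cattle was -1.85 (SE 0.31), a ratio of means of 0.247, with 66 of 14409 probe sets more strongly lower. Buffalo minus yak was 1.17 (SE 0.38), and GPX1 was the only 1 of the 6 genes higher in buffalo than in yak. Buffalo minus cattle was -0.68 (SE 0.31).

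The second GPX1 probe set was dimmer and kept this order between species. It read 37.8, 43.7 and 42.9 in yak and 112, 65.9 and 108 in buffalo, against 81.6 to 136 in females, 114 to 331 in castrated males and 114 to 225 in intact males. Yak again lay below all other arrays, at -1.42 (SE 0.28) against cattle, and buffalo minus yak was 0.92 (SE 0.34). All yak readings and that of buffalo 2 lay under 69.8, the mean intensity under which probe sets were left out of the tests. Whether they are above background is not known, and the size of these differences depends on the value added before taking logs. Both probe sets target the same gene and are no replicates of it. They differed in the sign of castrated minus intact male, at -0.22 (SE 0.43) for the brighter and 0.08 (SE 0.38) for the dimmer probe set, both smaller than their SE. On the brighter probe set that difference was 0.06 without intact male 1 and -0.73 without castrated male 1, and female minus castrated male, at -0.48 (SE 0.43), was 0.03 without castrated male 1.

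GPX3 (Entrez gene 281210), the plasma peroxidase, varied most within cattle. It read 245, 142 and 159 in buffalo and 277, 273 and 205 in yak, against 157, 133 and 132 in females, 413, 232 and 145 in castrated males and 729.5, 196 and 215 in intact males. Females lay below all intact males and all yak, while each group overlapped the next in the order of means. Female minus intact male was -1.08 (SE 0.48) and -0.50 without intact male 1. Castrated minus intact male was -0.36 (SE 0.48) and turned to 0.22 without that array. Yak minus cattle was 0.16 (SE 0.34) and buffalo minus cattle -0.30 (SE 0.34).

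SELENOP (Entrez gene 282066), the selenium carrier, was at 72.9, 69.4 and 63.9 in buffalo. The other groups were far brighter, with 1584, 1755 and 1732 in yak, 2058, 1794 and 1830 in females, 1895, 2232 and 1732 in castrated males and 3728, 2447 and 1946 in intact males. Every buffalo array lay below every other array, and these values sat around 69.8, the mean intensity under which probe sets were left out of the tests. Buffalo minus cattle was -4.66 (SE 0.16), and 1 of 14409 probe sets had a more negative difference. Buffalo minus yak was -4.33 (SE 0.19), with 5 probe sets more negative. The deposited values have no detection calls, so whether these buffalo readings are above background is not known and the size of the difference depends on the value added before taking logs. With 1 added in place of 16, the buffalo minus cattle difference was -4.93. Yak minus cattle was -0.33 (SE 0.16), and yak lay below all females. Castrated minus intact male was -0.42 (SE 0.22) and female minus intact male -0.46 (SE 0.22), with overlapping groups. Without intact male 1 these were -0.17 and -0.205.

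**Figure D2:**
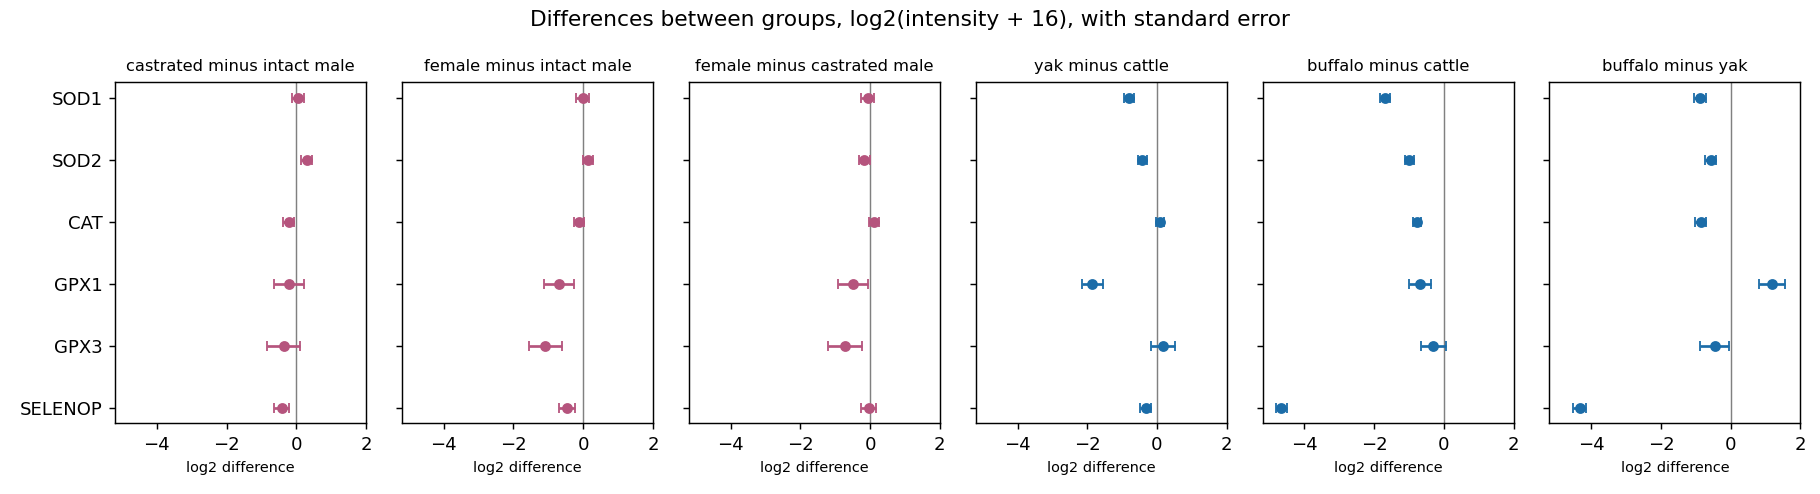
Log2 differences (points) with their standard error (bars) for the brighter or only probe set of each gene, in 6 comparisons of groups. The differences among cattle groups lie between -1.08 and 0.30, and SELENOP in buffalo is at -4.66 against cattle and -4.33 against yak.

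The comparisons differed in how much of the array changed, so counts of the 6 genes are set beside the share of all probe sets past the threshold. In buffalo minus cattle 4 of 6 genes passed, all lower (SOD1, SOD2, CAT and SELENOP), where 51.4% of all probe sets passed, 23.0% higher and 28.4% lower. In yak minus cattle 3 of 6 passed, all lower (SOD1, SOD2 and GPX1), where 29.1% passed, 13.2% higher and 15.9% lower. In buffalo minus yak 1 was higher and 4 lower, where 42.2% passed, 19.5% higher and 22.7% lower. Groups did not overlap for 4, 2 and 5 of the 6 genes in these 3 comparisons, where this held for 32.0%, 19.3% and 55.2% of all probe sets. Among cattle 0 of 6 genes passed in limma. The share of all probe sets that passed was 1.46% in castrated minus intact male (0.625% higher, 0.84% lower), 5.5% in female minus intact male (2.12% higher, 3.37% lower) and 0.0208% in female minus castrated male (0.0139% higher, 0.00694% lower). At an unadjusted p under 0.05 these shares were 20.5%, 27.7% and 7.55%. Groups did not overlap for 0, 1 and 0 of the 6 genes, where this held for 24.8%, 33.1% and 17.5% of all probe sets. The median difference of the 6 genes was -0.89 in buffalo minus cattle and -0.38 in yak minus cattle, beside -0.03 and -0.03 over all probe sets tested. As the genes were picked with these values in view, nothing is read from these counts. The SOD2 call in yak was lost without yak 1, without yak 2 and after quantile normalisation. The GPX1 call in buffalo minus yak was lost without yak 1, yak 3, buffalo 1 or buffalo 3. SELENOP in yak passed without intact male 3, and GPX1 in buffalo minus cattle passed without castrated male 3.

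The sizes in buffalo depended on the scaling between arrays. After quantile normalisation, which gives every array the same distribution, buffalo minus cattle was -1.40 for SOD1, -0.71 for SOD2 and -0.48 for CAT, each closer to 0. SOD2 in buffalo minus yak was -0.32 in that setting, no longer past the threshold. Over all probe sets, 3315 were higher and 4085 lower in buffalo than in cattle, against 4411 higher and 3473 lower after quantile normalisation.

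Within cattle, SOD1, SOD2 and CAT varied less from animal to animal than GPX1, GPX3 and SELENOP. Over the 9 cattle arrays the coefficient of variation was 13.8% for SOD1, 14.9% for SOD2 and 12.3% for CAT, against 49.3% for GPX1, 74.9% for GPX3 and 28.5% for SELENOP. These values pool the 3 groups, and the order did not hold within each group. Within females SELENOP was at 7.6% and GPX3 at 10.2%, against 18.6% for SOD1, 10.9% for SOD2 and 9.2% for CAT. Within castrated males SELENOP was at 13.1%, against 14.6%, 15.8% and 17.5%. Within intact males SELENOP was at 34.0%. High values came from a pair of arrays. Against the mean of the other 8 cattle arrays, intact male 1 was higher by 0.97 for GPX1, 1.86 for GPX3 and 0.91 for SELENOP on the log2 scale, with macrophage markers up by a median of 3.07. Castrated male 1 was higher by 1.24 for GPX1, 1.32 for its second probe set and 0.96 for GPX3, while SELENOP was at -0.18. In that animal the macrophage markers were at -0.81, against a mean that includes intact male 1, and the females were at -0.85, -1.18 and -1.36. Their sum of 2749 in castrated male 1 was the lowest of the castrated males. Fibroblast markers were at 1.64 in intact male 1 and -0.67 in castrated male 1. The part of either cell type in GPX1 and GPX3 was not tested. The actin ratio of castrated male 1, at 1.26, lay between those of the other castrated males.

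**Figure D3:**
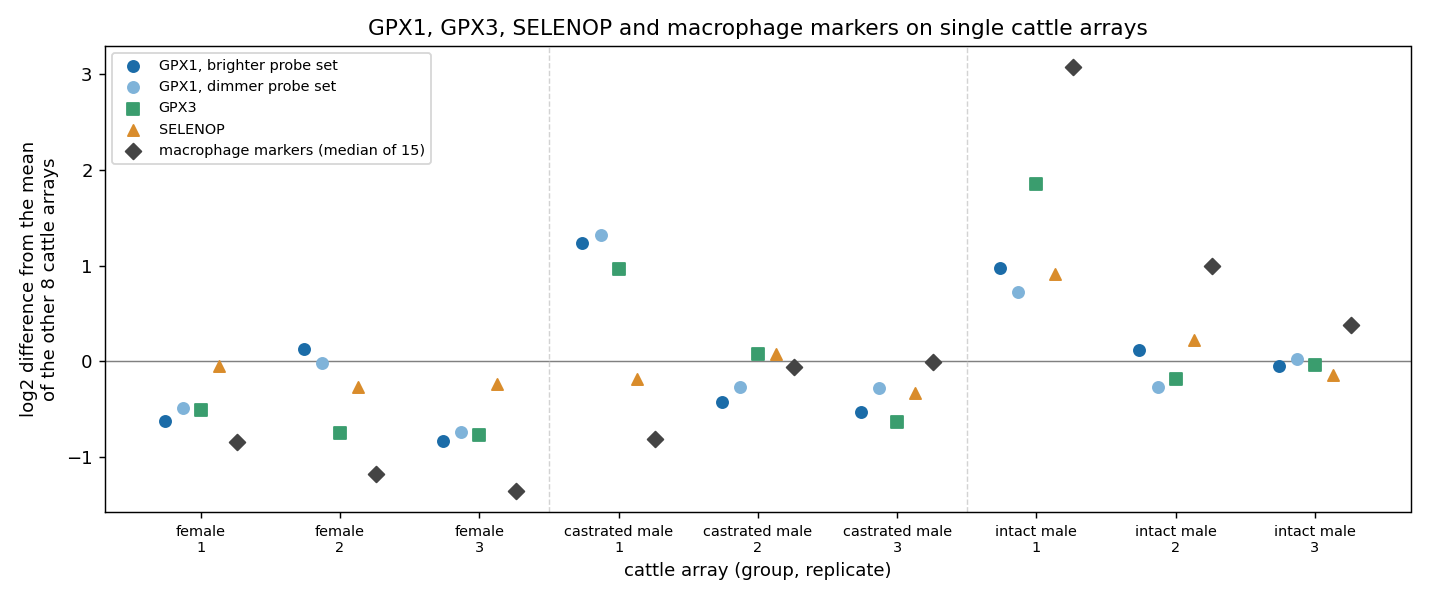
Log2 difference of each cattle array from the mean of the other 8, for both GPX1 probe sets, GPX3, SELENOP and the median of 15 macrophage markers. Intact male 1 is high for all of them, and castrated male 1 is high for GPX1 and GPX3. Macrophage markers are at -0.81 in castrated male 1 and at -0.85, -1.18 and -1.36 in females.

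Markers of other cell types also differed between the groups. Of all probe sets, 3.37% were called lower in female minus intact male and 0.84% in castrated minus intact male. In buffalo minus cattle 28.4% were called lower and 23.0% higher, and in yak minus cattle 15.9% and 13.2%. Of 13 tested macrophage markers 8 fell in females against intact males (median -2.39) and 0 passed in castrated males against intact males (median -1.77, with 13 at an unadjusted p under 0.05 in limma). Of 10 fibroblast markers 9 and 7 fell in these 2 comparisons. In buffalo and in yak against cattle 9 and 9 of 10 fibroblast markers fell, and 7 and 5 of 13 macrophage markers fell. The summed macrophage markers were 1234 to 1723 in buffalo and 1864 to 1954 in yak. These overlapped the 1533 to 2728 of females and lay below the 2749 to 4435 of castrated males and 6606 to 34220 of intact males. Of 7 adipocyte markers 3 fell and 2 rose in buffalo (median -0.94), and 4 fell and 1 rose in yak (median -1.64). Their summed intensity was 2840 to 5666 in buffalo, within the 2656 to 7189 of cattle, and 956 to 1654 in yak, below it. Slow fibre markers fell in 6 of 7 in yak, with a sum of 49349 to 57677 against 64673 to 84273 in cattle. In buffalo 3 of 7 slow fibre markers rose, MYH7 among them at 0.56 (SE 0.10, limma adjusted p = 0.000589), and 1 fell, while 4 of 8 fast fibre markers fell. No marker of any list was at 0 on all arrays of a group. The part of these cell types in the 6 genes' values was not tested.

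The genes most alike in pattern were found by the root mean square difference of centred log2 values over the 15 arrays, among 9198 probe sets with 1 symbol (9197 for GPX1). For SOD1 these were SNAP23 (0.23), CENPX (0.24) and ESYT1 (0.24). For SOD2 they were ISY1 (0.16), MCAT (0.17) and EEF1D (0.18). For GPX1 they were STK10, COPZ2 and MAP1B, at 0.39 to 0.46, and for GPX3 JPT1, PSAP and ARPC3, at 0.34 to 0.36. For SELENOP the nearest were PNRC2 (0.67), LRPAP1 (0.69) and GRB2 (0.74), which averaged 103, 29.1 and 47.8 in buffalo, against 1488, 198 and 695 in yak. CAT was left out, since its group means spanned only 0.88 on the log2 scale.

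The rest of the pathway was followed in 5 lists, of which 79 genes outside the 6 were tested. Among cattle groups 2 of 79 passed in castrated minus intact male and 3 of 79 in female minus intact male, all lower (0.84% and 3.37% of all probe sets were called lower). GPX7, a glutathione peroxidase of the endoplasmic reticulum without selenium, had 105, 93.7 and 97 in castrated males and 92, 118 and 117 in females, against 512, 280 and 241 in intact males. It fell by 1.58 (SE 0.24, limma adjusted p = 0.0181) in castrated males and by 1.46 (SE 0.24, limma adjusted p = 0.0177) in females, with no overlap. BLVRA, which makes bilirubin from biliverdin, fell by 0.68 (SE 0.11, limma adjusted p = 0.0283) and 0.63 (SE 0.11, limma adjusted p = 0.0243). ATOX1, the copper chaperone, had 921, 776 and 842 in females against 3335, 1598 and 1424 in intact males, and fell by 1.20 (SE 0.28, limma adjusted p = 0.0447). Intact male 1 was again the highest array for ATOX1 and GPX7. In castrated minus intact male 0 of 79 passed without intact male 2 or without any 1 of the castrated males, and 4 without intact male 3. In female minus intact male 0 passed without female 2 or female 3, 1 without female 1 or intact male 2, and 16 without intact male 3. In female minus castrated male 0 of 79 passed in limma, and the list medians lay between -0.12 and -0.03.

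In buffalo against cattle 50 of 79 pathway genes passed, 13 higher and 37 lower, with a median of -0.28 (63.3%, beside 51.4% of all probe sets). After quantile normalisation 20 were higher and 28 lower, so the size of the excess of lower calls depended on the scaling. Over all probe sets 4411 were higher and 3473 lower in that setting. The filter and the choice of the brightest probe set used the mean over 15 arrays, of which 9 were cattle. In comparisons with cattle this favours probe sets that are bright in cattle. Without the filter 7109 probe sets were higher and 4820 lower in buffalo. The 79 genes were counted by 1 probe set each, unlike the share over all probe sets. In the thioredoxin and peroxiredoxin list, which also holds glutaredoxins, 8 of 15 fell and 2 rose. Most peroxiredoxins reduce peroxide through thioredoxin. PRDX6, a peroxiredoxin of the cytosol, fell to 678 ± 159 in buffalo (n = 3), against 1893 ± 289 in cattle (SD, n = 9), a log2 difference of -1.47 (SE 0.15, limma adjusted p = 4.49e-06). PRDX2 fell with -1.16 (SE 0.15), and the thioredoxin-like TXNL1 with -1.48 (SE 0.21). PRDX5 at -0.47 (SE 0.10) passed, but not after quantile normalisation, where it was -0.19. Of 22 glutathione genes 12 fell and 3 rose. GPX4, the selenium peroxidase of membrane lipids, read 484, 510 and 374 in buffalo, against 927 to 2706 in cattle, and fell by 1.64 (SE 0.18, limma adjusted p = 5.82e-06). GSTK1, a mitochondrial and peroxisomal glutathione transferase, fell by 2.17 (SE 0.18), while GSS, which completes glutathione synthesis, rose with 0.87 (SE 0.10, limma adjusted p = 9.35e-06).

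KEAP1, which marks the transcription factor NRF2 for breakdown, was also lower in buffalo. KEAP1 read 632, 413 and 429 in buffalo, against 2332, 2298 and 1579 in yak and 891 to 2822 in cattle. It did not overlap cattle or yak, and fell by 2.05 (SE 0.22, limma adjusted p = 5.07e-06) against cattle. NQO1, a quinone reductase and a known NRF2 target, fell by 1.27 (SE 0.21) and ME1, malic enzyme, by 1.49 (SE 0.16). The gene of NRF2 itself, NFE2L2, was at 0.27 (SE 0.15) and did not pass. Over all probe sets 51.4% passed in this comparison, 28.4% lower and 23.0% higher, and the counts of the next 3 lists are set beside these shares. In the NRF2 list 8 of 18 fell and 2 rose, while the median of the 18 was above 0, at 0.165. Among other selenoproteins and the genes that insert selenocysteine 4 of 11 fell and 4 rose. SELENOF, a selenoprotein of the endoplasmic reticulum, fell by 1.53 (SE 0.17), and SELENOH, a nuclear one, by 0.89 (SE 0.14), while SELENOK rose with 0.295 (SE 0.09), a call lost without buffalo 3. Of 13 superoxide partners and oxidant sources 5 fell and 2 rose. Among them CCS, which loads copper into SOD1, was at -0.55 (SE 0.13), overlapping the cattle range. Xanthine dehydrogenase, XDH, was at 0.98 (SE 0.25), also with overlap. The prion protein gene PRNP was at -2.02 (SE 0.17), without overlap.

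**Figure D4:**
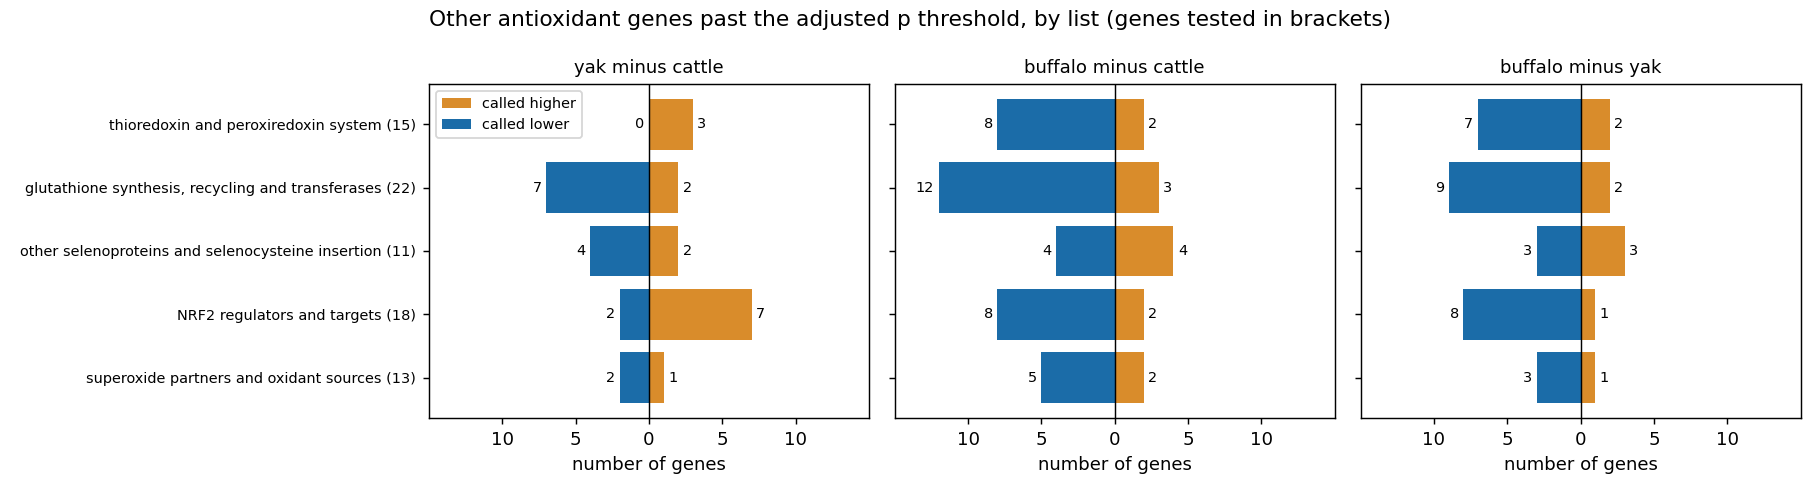
Number of pathway genes outside the 6 that passed the threshold, higher (right) or lower (left), in 5 lists and 3 comparisons of species, with the number tested in brackets. In buffalo minus cattle 12 of 22 glutathione genes are lower, where 28.4% of all probe sets are. In yak minus cattle 7 of 18 NRF2 genes are higher, where 13.2% of all probe sets are.

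In yak against cattle 30 of 79 passed, 15 higher and 15 lower, with a median of 0.00 (29.1% of all probe sets passed). The count was 19 without yak 1. NRF2 genes rose in 7 of 18 and fell in 2. NFE2L2 read 2314, 1756 and 1461 in yak, against 804 to 1238 in cattle, and rose with 0.84 (SE 0.15, limma adjusted p = 0.00149). MAFG, which pairs with NRF2 on DNA, rose with 0.97 (SE 0.17), and NFE2L1, a relative of NRF2, with 0.75 (SE 0.19), a call lost without yak 1 (0.64) and against castrated males and females alone (0.59). TKT, transketolase, fell with -1.52 (SE 0.34). KEAP1 was at -0.01 (SE 0.22) and did not pass. In the thioredoxin list 3 of 15 rose. These were GLRX3, a glutaredoxin, by 0.69 (SE 0.11), TXNRD2, the selenium-bearing thioredoxin reductase of mitochondria, by 0.55 (SE 0.08), and PRDX1, a peroxiredoxin, by 0.31 (SE 0.11). The PRDX1 call held in only 6 of 18 other settings and was lost in 10 of the 12 that left out 1 array.

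In the list of other selenoproteins and selenocysteine insertion genes, 2 of 11 rose and 4 fell in yak. The 4 that fell were selenoproteins (SELENOH, SELENOT, SELENOF and SELENON), and the 2 that rose, PSTK and SEPHS1, a relative of selenophosphate synthetase, were not. TXNRD2, a selenoprotein counted in the thioredoxin list, rose. Of the 11 genes 6 lay above 0 and 5 below, with a median of 0.15 (29.1% of all probe sets passed). SELENOF, named after its value was seen, was at -0.48 (SE 0.17), a call that held in 8 of 18 other settings. SELENOH read 503, 776 and 613 in yak, against 1633 to 2287 in cattle, and fell by 1.69 (SE 0.14, limma adjusted p = 3.97e-06). SELENOT, of the endoplasmic reticulum, fell with -1.12 (SE 0.27), a call lost without yak 1. PSTK, a kinase of selenocysteine synthesis on its transfer RNA, rose with 0.97 (SE 0.16). GPX4 read 958, 825 and 792 in yak and fell by 0.75 (SE 0.18, limma adjusted p = 0.00692), overlapping the cattle range. Glutathione genes fell in 7 of 22 and rose in 2, with GSTK1 at -1.08 (SE 0.18), overlapping the cattle range. Of the 13 partners and sources, UCP2, a mitochondrial carrier, rose with 0.99 (SE 0.17), and PRNP fell with -1.32 (SE 0.17), against 1 higher and 2 lower in all.

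**Figure D5:**
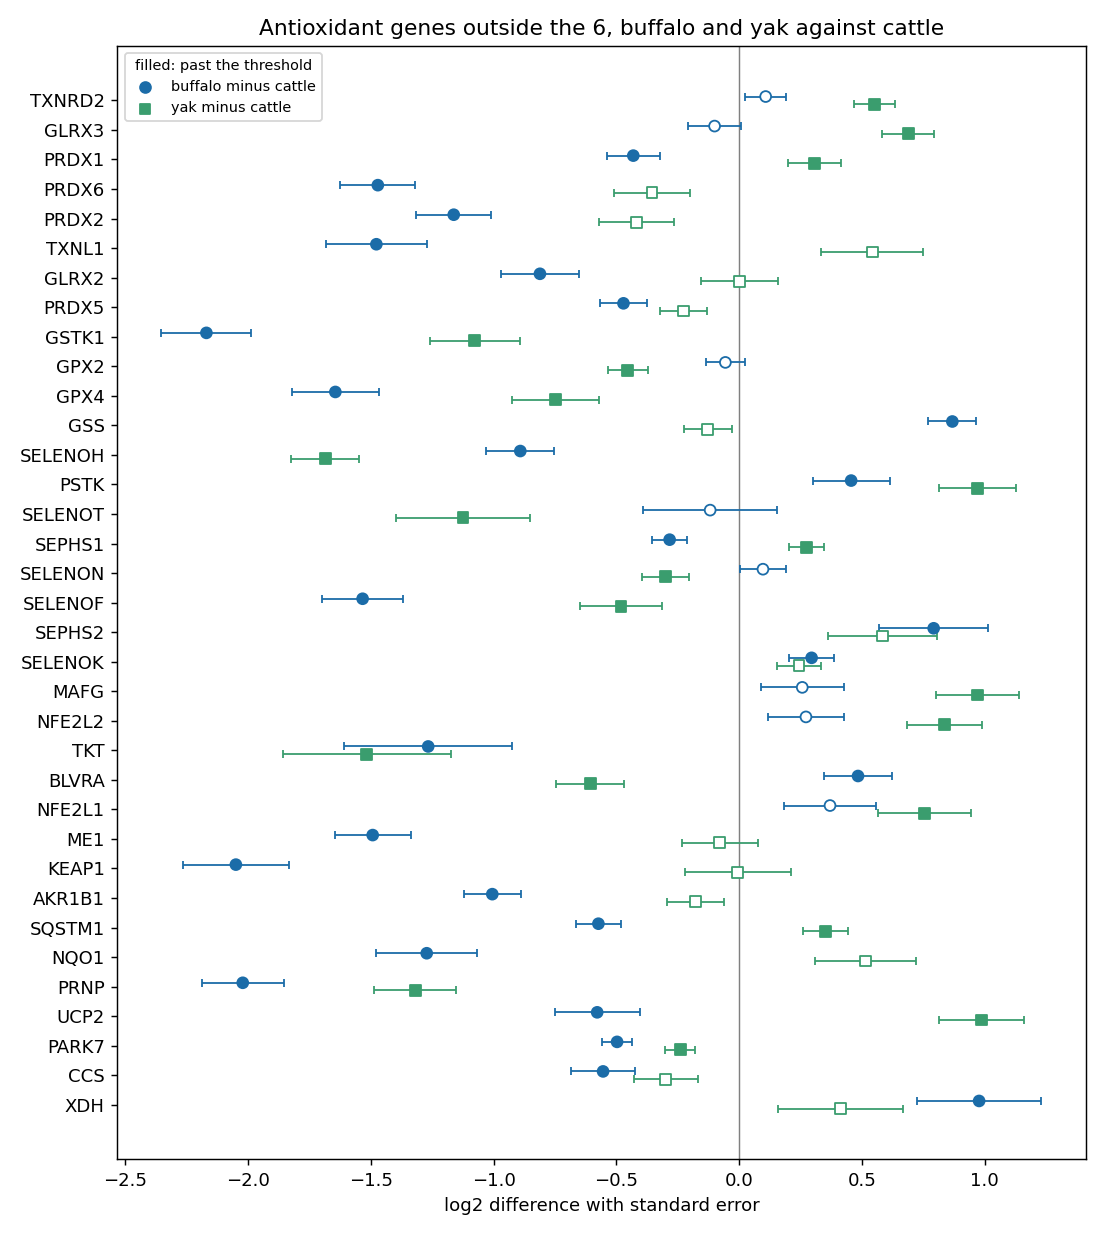
Log2 differences with standard error of the named pathway genes outside the 6, for buffalo minus cattle (circles) and yak minus cattle (squares), which share the cattle arrays. Filled symbols passed the threshold. KEAP1 is at -2.05 in buffalo and -0.01 in yak, and NFE2L2 is at 0.27 in buffalo and 0.84 in yak.

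Between buffalo and yak 39 of 79 passed, 9 higher and 30 lower, with a median of -0.24 beside 0.01 over all probe sets (49.4%, beside 42.2%). After quantile normalisation 13 were higher and 23 lower. KEAP1 fell with -2.04 (SE 0.26), NQO1 with -1.79 (SE 0.25) and PRDX6 with -1.11 (SE 0.19). GSS rose with 1.00 (SE 0.12), and SELENOH, like GPX1 lowest in yak, rose with 0.79 (SE 0.17, limma adjusted p = 0.00224). NFE2L2 fell with -0.57 (SE 0.19, limma adjusted p = 0.0265), a call that held in 7 of 11 other settings.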

How the data were processed

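RNA was extracted with Trizol and labelled as biotin cRNA by the standard Affymetrix protocol, per the labels. Per the labels and the deposited series table, the authors gave 1 linear intensity for each of 24128 probe sets on each of 15 arrays. The summarisation program and any scaling were not given in the sources used here. After removal of 112 control probe sets, 16 was added and log2 taken. Only probe sets whose mean exceeded the 40th percentile (6.42) entered the tests, 14409 of 24016. Symbols came from the platform annotation (13292 probe sets with 1 symbol, 86 with several), of which 13263 matched the current gene table. A gene with several probe sets was counted by the brightest. Glutathione transferase genes that carry only a locus number are counted but not named.

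Groups came from the labels. Models were fitted with limma 3.58.1 in R 4.3.3 (lmFit, eBayes with a trend, two-sided), on the 9 cattle arrays for cattle groups and on all 15 for species. Steps were tested on simulated data. With 3 arrays against 3 an exact permutation test cannot go below 0.1. The labels call the arrays biological replicates. Members and lists were chosen with earlier results of these data known. Named pathway genes come from the 5 called genes with the smallest p per list and comparison. KEAP1 and NFE2L2 values outside this rule were added after their values were seen. Alternatives were quantile normalisation, a pseudocount of 1, no filter, no variance trend, a replicate block, other sets of arrays and leaving out each array.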

Additional observations from a re-analysis of the deposited data

How the results depend on the processing

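Of 216 log2 differences of the 6 genes recomputed under other settings, 208 moved by less than the spread between replicates, and all 288 with 1 array left out did. Dropping the filter or variance trend, adding a replicate block or fitting all 15 arrays cannot change a difference of group means. Many of the 208 were thus fixed in advance, and the 216 include the second GPX1 probe set. Leaving out 1 of 3 arrays moves a group mean little against this spread. GPX3 in castrated minus intact male turned from -0.36 to 0.22 without intact male 1 and still counted as unmoved. The 8 that moved were SOD1, SOD2 and CAT after quantile normalisation, at -1.40, -0.71 and -0.48 in buffalo minus cattle and -0.59, -0.32 and -0.60 in buffalo minus yak, and SELENOP with a pseudocount of 1, at -4.93 and -4.60. Counts of probe sets called were 718, 1911 and 5 with all 15 arrays in the cattle fits, for castrated minus intact male, female minus intact male and female minus castrated male (211, 792 and 3 with 9 arrays), 0 for female minus castrated male with a pseudocount of 1, and 11929 without the filter in buffalo minus cattle (7109 higher and 4820 lower). With all 15 arrays 10 pathway genes passed in female minus intact male. With 1 array left out, probe sets called ranged from 41 to 995, 77 to 2194, 2 to 4, 2281 to 4643, 6215 to 7877 and 4720 to 5671 in the 6 comparisons in their usual order (castrated minus intact male, female minus intact male, female minus castrated male, yak minus cattle, buffalo minus cattle, buffalo minus yak), and pathway genes called from 0 to 4, 0 to 16, 0 to 0, 19 to 38, 39 to 54 and 32 to 41. The cause of these shifts was not tested. The replicate numbers pair nothing by the labels, and 6 of 30 same-numbered pairs had deviations correlated above 0.1 (-0.33 to 0.15), with 4 of 15 arrays closest to their own number. With a replicate block 1 pathway gene passed in castrated minus intact male instead of 2, and 143 probe sets instead of 211. Of 538 recomputed values of named pathway genes 24 lost the call, as did 75 of 918 with 1 array left out, and 0 reversed. Dim readings such as SELENOP in buffalo have no detection call, which limits their size.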
